A study of Mus musculus with 72 samples.

Results

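The genes examined were the 3 TGF-beta ligands (Tgfb1, Tgfb2 and Tgfb3), their 3 receptors (Tgfbr1, Tgfbr2 and Tgfbr3) and the 4 latent TGF-beta binding proteins (Ltbp1, Ltbp2, Ltbp3 and Ltbp4). They were taken by Entrez identifier from a table of read counts for 24237 genes, and all 10 were found. RNA.seq libraries had been made from hearts of male and female C57BL/6J mice, microdissected into right atrium (RA), left atrium (LA) and ventricles, with 3 mice for each sex and condition and 72 libraries in all. Of the 4 groups, naïve Ahr+/+ mice came from dams given corn oil only, and Ahr-/- mice, constitutive rather than heart-specific knockouts of the aryl hydrocarbon receptor, came from untreated dams. The TCDD-exposed Ahr+/+ mice came from dams gavaged on 3 days of gestation with 0.1 μg/kg (low dose) or 1 μg/kg (high dose) of TCDD, a dioxin and strong ligand of the receptor. Hearts were taken at 10 months of age by the study's methods and at 9 months by the sample labels. The labels also place the gavage later in gestation than the methods do and name TCDD for all 72 samples. Each heart gave all 3 compartments, and the labels do not tell which libraries share a heart.

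TGF-beta is made as a precursor that stays bound to its own propeptide after cleavage, so that the secreted ligand is latent. In most cells the latent complex is linked to a latent TGF-beta binding protein, which ties it to fibrillin and fibronectin in the extracellular matrix until integrins, proteases or thrombospondin release it. The free ligand binds the type II receptor Tgfbr2, which phosphorylates the type I receptor Tgfbr1, and this kinase in turn phosphorylates Smad2 and Smad3. Tgfbr3, or betaglycan, is a co-receptor that presents ligand, Tgfb2 above all, to the signalling pair. In the heart the pathway is known for its part in endocardial cushion formation, in the turning of fibroblasts into matrix-producing myofibroblasts and in fibrosis. Ltbp2 differs from its relatives in that it does not bind latent TGF-beta, and Ltbp4 is also needed for elastic fibre assembly.

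The promoters of Tgfbr1 and Ltbp4 are shown because these were the members that passed the test in high-dose TCDD-exposed female ventricles, and because the receptor under study binds DNA at a core of 5 bases, GCGTG. Sequences of 300 bases, from 250 before to 50 after a transcript start, were taken from RefSeq (GRCm38.p6), with the core on either strand (GCGTG or CACGC) in capitals. For Tgfbr1 the window is chr4:47352972-47353271 on the plus strand, and for Ltbp4 it is chr7:27337563-27337862 on the minus strand.
Tgfbr1: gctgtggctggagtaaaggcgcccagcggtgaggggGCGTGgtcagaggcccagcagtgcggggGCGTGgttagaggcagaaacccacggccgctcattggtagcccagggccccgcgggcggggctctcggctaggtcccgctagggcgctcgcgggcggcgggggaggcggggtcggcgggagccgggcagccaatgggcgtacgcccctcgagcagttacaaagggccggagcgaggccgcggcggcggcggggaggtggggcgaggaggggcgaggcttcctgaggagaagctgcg
Ltbp4: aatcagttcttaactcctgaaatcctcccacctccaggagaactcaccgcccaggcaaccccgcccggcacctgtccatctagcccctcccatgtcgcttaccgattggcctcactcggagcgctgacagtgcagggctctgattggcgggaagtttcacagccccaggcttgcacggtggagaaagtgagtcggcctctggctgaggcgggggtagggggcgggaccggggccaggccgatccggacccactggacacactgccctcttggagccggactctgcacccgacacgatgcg
The Tgfbr1 window holds 2 copies and the Ltbp4 window 0. These are the windows at the outermost start of each gene. The table has 1 other start for Tgfbr1, with 0 copies, and 2 others for Ltbp4, which overlap and hold 1 copy each. Of the 8 members with an entry, 4 hold the core (Tgfb1, Tgfbr1, Tgfbr2 and Ltbp2), counting the outermost window, where 32.4% of all 32851 promoters in the table do. A match is a string of letters and not a measured binding site, and no entry was read for Tgfb3 and Tgfbr3.

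Libraries held 11873417 to 28789382 counted reads, with a median of 19231739, and values are given as CPM, the counts scaled to a common library total. A count of 0 would allow between 0.104 and 0.253 CPM, depending on depth and for counting error alone. No member came near this floor, the lowest count of any member in any library being 23 reads of Ltbp2. Ahr itself lay at 8.59 to 30.8 CPM in the 18 naïve and at 2.0 to 9.23 CPM in the 18 Ahr-/- libraries. Several labels were at odds with marker genes. In 8 libraries the sex-linked genes were opposite to the label (numbers 50, 56, 62 and 68 of the female RA and 53, 59, 65 and 71 of the male ventricles). All 8 are in the series numbered 49 to 72. In 8 of the 48 atrial libraries (4, 11, 23, 24, 51, 57, 63 and 69) the atrial light chain gene Myl4 was at 2.21 to 48.7 CPM, against 621 CPM or more in the other 40. The 4 male ventricle libraries above held Myl4 at 704 to 3533 CPM. Of the other 20 ventricle libraries, 3 also held Myl4 over 100 CPM (naïve female 35 at 193, and low-dose male 45 at 167 and 46 at 675), and 17 held at most 93.3 CPM. Of the 24 libraries numbered 49 to 72, which hold 1 library of each group, 12 are thus at odds with their label by sex-linked genes or low atrial Myl4, namely all those of female RA, male LA and male ventricles, against 4 of the 48 others. Bmp10, a right atrial gene looked at after its values were seen, was under 50 CPM in 10 of 24 RA libraries and at or over 50 CPM in 5 of 24 LA libraries, 3 of them among the 4 female LA libraries numbered 49 to 72. In that series it was at or over 50 CPM in 4 of 4 male RA and 0 of 4 female RA libraries. The male LA and the male ventricles of the series each had 0 of 4. Whether labels were exchanged within the series was not tested. Groups follow the labels throughout. The 16 libraries with sex-linked genes opposite to the label or with little Myl4 in an atrium are called in doubt below, and results that rest on them are also given without them where a fit could be made. Libraries 35, 45 and 46 are not among these 16, and their Myl4 is given beside the results they touch. Nor are the female LA libraries 52, 58, 64 and 70, in spite of their Bmp10. Results for the LA without the libraries in doubt, such as those of the 56 libraries, therefore still hold these 4.

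Levels were first compared within the naïve group. On the scale of CPM per kb of coding sequence, which allows comparison between genes, the receptor Tgfbr2 and the binding protein Ltbp4 stood highest in every compartment, with medians over 6 libraries of 60.0 and 58.3 in the ventricles. The RA medians were 77.0 for Tgfbr2 and 107 for Ltbp4, and the LA medians 87.1 and 91.0. Next came Tgfbr3 and Tgfbr1, at 34.5 and 31.1 in the ventricles. The ligands and Ltbp1 followed, with ventricular medians of 17.2 for Tgfb1, 16.9 for Ltbp1, 11.5 for Tgfb2 and 9.87 for Tgfb3. Ltbp3 stood at 6.49 and Ltbp2 last at 0.43. The order thus ran from receptors and Ltbp4 through the ligands to Ltbp3 and Ltbp2, but most neighbours in it overlapped over the 6 libraries. The exceptions were Tgfbr1 and the gene below it, which did not overlap in the RA (Ltbp1) or in the ventricles (Tgfb1). In the LA all 9 neighbouring pairs overlapped.

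**Figure D1:**
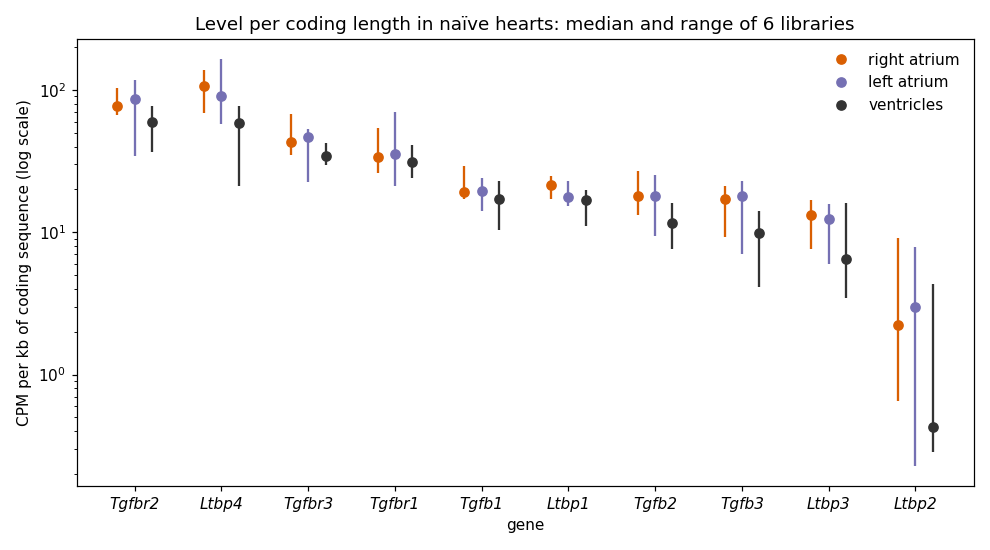
Level of each gene in CPM per kb of coding sequence (log axis) in the 18 naïve libraries, by labelled compartment. Points are medians and lines the range of 6 libraries, with genes in the order of their ventricular medians, from Tgfbr2 at 60.0 to Ltbp2 at 0.43.

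Among the ligands, the ventricular libraries tended to the lower end. Tgfb1, the most widely expressed ligand, had a naïve median of 22.4 CPM in the RA (range 20.2 to 34.0), 22.7 in the LA (16.5 to 28.3) and 20.1 in the ventricles (12.0 to 27.0). Tgfb2, needed for valve development, had medians of 23.7 (17.7 to 35.8), 24.0 (12.4 to 33.4) and 15.3 CPM (10.1 to 21.4). Tgfb3 had medians of 21.0 (11.4 to 26.1), 22.2 (8.63 to 28.4) and 12.2 CPM (5.13 to 17.5). For each ligand the compartments overlapped. The lowest LA values of Tgfb2 and Tgfb3 came from library 51, which is one of those with little Myl4.

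The receptors overlapped between compartments as well. Tgfbr1 had naïve medians of 54.0 CPM in the RA (41.7 to 86.4), 56.5 in the LA (33.6 to 111) and 49.5 in the ventricles (38.1 to 65.6). Tgfbr2 had medians of 137 (118 to 184), 155 (60.7 to 208) and 107 CPM (65.6 to 138). Tgfbr3 had medians of 110 (89.7 to 172), 120 (57.9 to 137) and 87.9 CPM (75.8 to 107). The ventricular median was the lowest of the 3 for each receptor.

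The binding proteins ranged from Ltbp1, with similar medians, to Ltbp2, with the least even ones. Ltbp4 had naïve medians of 579 CPM in the RA (371 to 748), 490 in the LA (310 to 887) and 314 in the ventricles (114 to 415). Ltbp3 had medians of 51.8 (29.9 to 65.4), 48.7 (23.2 to 61.2) and 25.3 CPM (13.3 to 62.9), and its highest ventricular value came from library 53, whose sex-linked genes and Myl4 were at odds with its label. Ltbp1 had medians of 113 (90.5 to 131), 93.7 (80.4 to 120) and 88.7 CPM (58.1 to 104). Ltbp2 had medians of 12.3 (3.59 to 50.0), 16.3 (1.26 to 43.3) and 2.36 CPM (1.57 to 23.9). Over all 72 libraries Ltbp2 ran from 1.20 to 63.3 CPM.

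**Figure D2:**
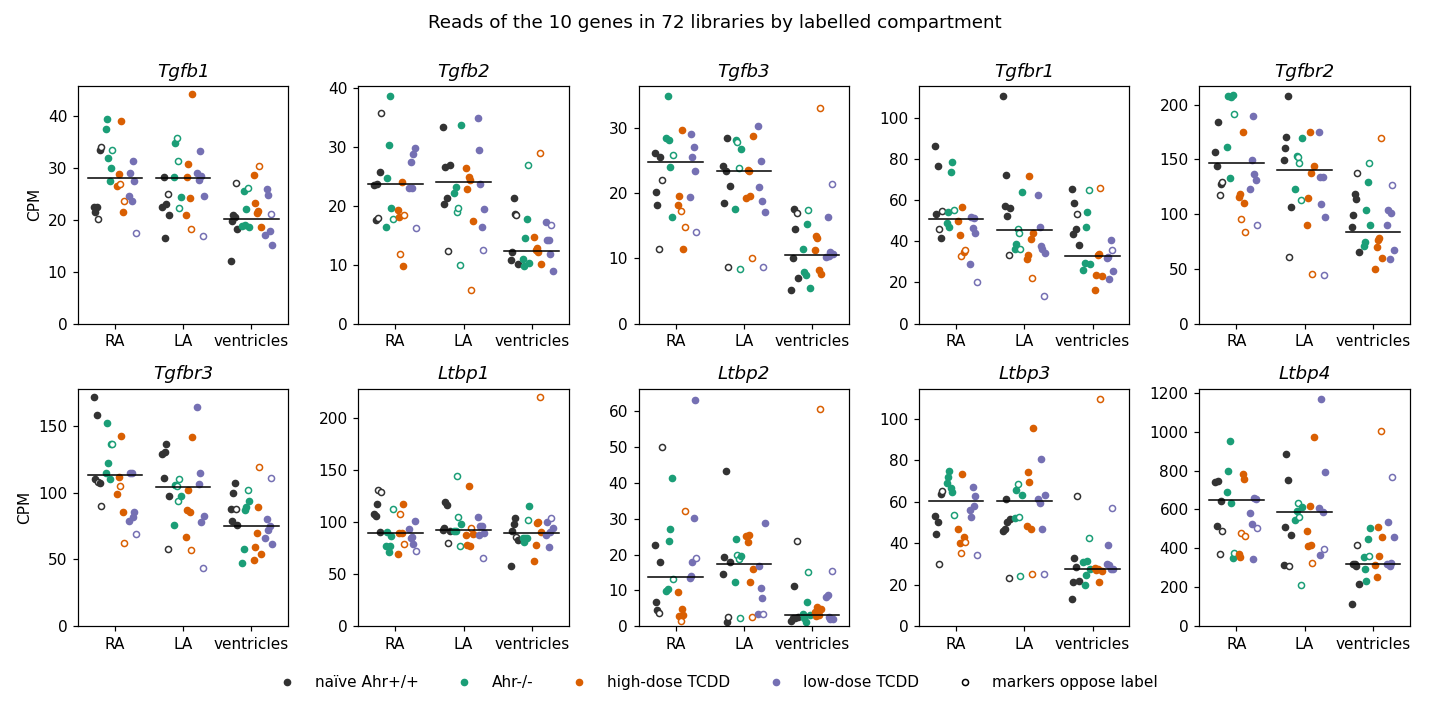
CPM of the 10 genes in all 72 libraries, by labelled compartment and coloured by group. Open points are the 16 libraries whose markers oppose their label, and the bar is the median of the other libraries, which for Ltbp3 is 60.5 in the RA, 60.3 in the LA and 27.5 CPM in the ventricles.

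Compartments were tested over the 18 naïve libraries with sex as a covariate (edgeR quasi-likelihood test, Benjamini-Hochberg adjustment over 15507 genes, call at an adjusted p under 0.05). As labelled, edgeR called 0 of 10 members between ventricles and RA, beside 0.00645% of all genes (1 gene). DESeq2 called Ltbp4 (1 of 10). Its own share of all genes is not given here, and the edgeR share is no background for that call. At an unadjusted p under 0.05 there were 6 of 10, namely Tgfb2, Tgfb3, Tgfbr3, Ltbp1, Ltbp3 and Ltbp4, beside 18.7% of all genes. The log2 fold changes, ventricles minus RA, were -0.29 for Tgfb1, -0.58 for Tgfb2, -0.72 for Tgfb3, -0.12 for Tgfbr1, -0.35 for Tgfbr2, -0.36 for Tgfbr3, -0.29 for Ltbp1, -1.22 for Ltbp2, -0.68 for Ltbp3 and -0.95 for Ltbp4. The value of Ltbp2 hung on single libraries, being -2.26 without naïve ventricle 53 and -0.41 without naïve RA library 50. The median of the 10 was -0.47, where the median over all genes was -0.02. Between ventricles and LA, 0 of 10 members were called by edgeR and by DESeq2, where edgeR called 0% of all genes. Tgfb2 (-0.53), Tgfb3 (-0.70) and Ltbp4 (-0.81) had an unadjusted p under 0.05 there, 3 of 10 beside 11.5% of all genes. Between LA and RA, 0% of all genes and 0 of 10 members were called by edgeR, DESeq2 called 0 members, and no member had an unadjusted p under 0.05, where 1.10% of all genes did. The LA minus RA values lay between -0.18 and 0.08 on the log2 scale, in a comparison that the Bmp10 values above leave doubtful. Without the libraries in doubt edgeR again called 0% of all genes between LA and RA, and so no member. In that fit 3.38% of all genes had an unadjusted p under 0.05.

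Leaving out the libraries in doubt raised the compartment difference of some members and lowered that of others. With 14 naïve libraries left, Tgfb3 (log2 fold change -0.999 ± 0.276, SE, adjusted p = 0.0197), Ltbp3 (-1.10 ± 0.19, 0.00131) and Ltbp4 (-1.34 ± 0.27, 0.0036) were lower in ventricles than in RA by edgeR, 3 of 10 beside 19.5% of all genes. The difference from the RA shrank for Tgfb1 (to -0.21), Tgfb2 (-0.51), Tgfbr1 (-0.07) and Ltbp1 (-0.15), none of them called. Against the LA, Tgfb2, Tgfb3, Tgfbr2, Ltbp3 and Ltbp4 were lower, 5 of 10 beside 14.3% of all genes, and the values of Tgfb1 (-0.08) and Ltbp1 (-0.04) shrank. When all 72 libraries were fitted as labelled with a term for each group and sex, 7 of 10 members were lower in ventricles than in RA (30.5% of all genes were called) and 4 of 10 lower than in LA (18.3%). Ltbp4 was then at -0.37 against the RA and -0.34 against the LA, and Ltbp2 at -1.22 against the RA. In the 56 libraries not in doubt, a selection made after the data were seen, 9 of 10 were called between ventricles and RA beside 51.0% of all genes. Of these 8 were lower and Ltbp1 was higher (0.21 ± 0.09, edgeR adjusted p = 0.0365). Ltbp1 had no stable direction, with -0.29 as labelled in the naïve libraries and a value above 0 here. Against the LA 8 of 10 members were lower, the exceptions being Tgfb1 and Ltbp1, beside 49.0% of all genes. The members that led in this set were Ltbp3 (-0.87 ± 0.09 against the RA and -0.90 ± 0.09 against the LA) and Ltbp2 (-1.86 ± 0.37 and -2.05 ± 0.35), while Ltbp4 was at -0.65 and -0.56. Without ventricles 35, 45 and 46 as well, which left 53 libraries, 8 of 10 members were lower than in the RA beside 48.8% of all genes, and Ltbp1 was not called (0.21, adjusted p = 0.0524). Against the LA 8 of 10 were lower beside 47.5% of all genes. Ltbp3 then had -0.94 and -0.98, and Ltbp2 -2.14 and -2.33. The sample of each fit holds several compartments of the same hearts, which could not be paired.

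**Figure D3:**
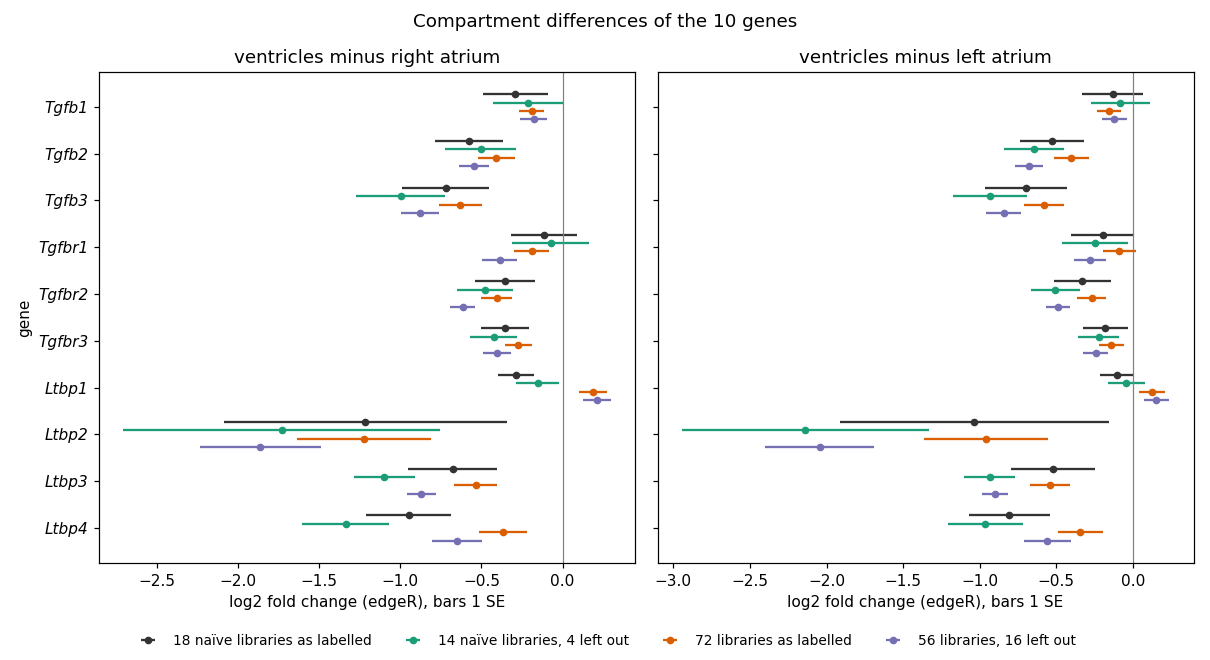
Log2 fold change of the 10 genes between ventricles and each atrium by edgeR, with bars of 1 SE, for the naïve and for all libraries, with and without those in doubt. Most points lie left of 0, with Ltbp2 the widest, and Ltbp1 lies on either side of 0 depending on the libraries used.

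Markers of other cell types moved with compartment. Over the 56 libraries not in doubt, the summed CPM of 8 fibroblast markers ran from 4110 to 8642 in the RA, 4381 to 9002 in the LA and 1800 to 4026 in the ventricles, with no overlap between atria and ventricles. As labelled in the naïve libraries, 0 of the 8 were called between ventricles and RA, and 3 had an unadjusted p under 0.05. Sums of the 6 macrophage markers ran from 163 to 370, 183 to 315 and 88.1 to 214 CPM, and those of the 4 epicardial and mesothelial markers from 58.0 to 250, 36.3 to 437 and 4.70 to 46.8 CPM. The 6 endothelial markers summed to 590 to 1006, 689 to 1040 and 606 to 1030 CPM and overlapped throughout. The part of these markers in the members' compartment difference was not tested. In bulk samples fewer cells of a type and less RNA per cell cannot be told apart.

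Of the 18 comparisons with naïve, high-dose TCDD in the female ventricles gave the most called genes by edgeR, 23.7% of the 14006 tested. Of the members 2 of 10 were called, a share (20%) near this background, and at an adjusted p under 0.0001, the study's threshold, edgeR called 0 of 10 (0.0286% of all genes) and DESeq2 called 1 of 10, Ltbp4 (adjusted p = 2.47e-05, beside 5.11% of all genes). Ltbp4 was higher. Its naïve libraries held 322, 311 and 217 CPM and the high-dose ones 510, 362 and 456 CPM. The groups did not overlap, and the log2 fold change was 0.85 ± 0.17 (SE; edgeR adjusted p = 0.00442). Tgfbr1, the signalling kinase, was lower. Its naïve libraries held 58.5, 45.8 and 38.1 CPM and the high-dose ones 33.6, 33.9 and 23.3 CPM. These groups did not overlap either, and the log2 fold change was -0.48 ± 0.15 (edgeR adjusted p = 0.0314).

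Both calls had limits. They were lost when all 4 groups of female ventricles were fitted together (adjusted p = 0.0971 for Ltbp4 and 0.188 for Tgfbr1), with log2 fold changes of 0.85 and -0.48. Leaving out each library in turn kept Ltbp4 called (0.71 to 1.02) but lost Tgfbr1 without library 35 (-0.36, adjusted p = 0.176), 36 (-0.52, 0.0655), 43 (-0.52, 0.0554) or 66 (-0.41, 0.099). The naïve library 35 also held Myl4 at 193 CPM, where the other 5 of these ventricles held at most 22.1 CPM. Within the series numbered 1 to 48, with 2 libraries a group, Ltbp4 had 0.60 ± 0.18 (adjusted p = 0.0599) and Tgfbr1 -0.50 ± 0.15 (0.0669). In the series numbered 49 to 72, with 1 library a group and no test possible, Ltbp4 was at 217 CPM in the naïve and 456 in the high-dose library, and Tgfbr1 at 38.1 and 23.3.

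The other 8 members were not called there, with log2 fold changes from -0.31 to 0.22 and edgeR adjusted p from 0.221 to 0.998. The receptor Tgfbr2 held 118, 113 and 65.6 CPM in the naïve and 76.3, 78.6 and 60.4 in the high-dose libraries. These overlapped, through naïve library 54 alone. Without that library Tgfbr2 had a value of -0.45 ± 0.13 (edgeR adjusted p = 0.0271). The share of all genes called in that fit is not given here, so this is not read as a result about Tgfbr2. Tgfbr3 held 99.5, 107 and 75.8 CPM in the naïve and 69.8, 89.7 and 54.1 in the high-dose libraries, which overlapped. Tgfb2 held 21.4, 18.6 and 10.1 against 12.9, 12.1 and 10.1 CPM, and Tgfb3 17.5, 14.4 and 7.00 against 13.1, 8.13 and 7.64 CPM. Library 54 was the lowest naïve one for both ligands. Tgfb1 held 20.8, 20.4 and 18.1 against 21.2, 21.6 and 18.6 CPM, and Ltbp1 98.1, 104 and 83.1 against 99.3, 101 and 90.9 CPM. Ltbp3 held 33.1, 28.6 and 22.0 against 27.5, 21.5 and 26.7 CPM, and Ltbp2 11.3, 2.23 and 2.48 against 5.27, 3.23 and 4.90 CPM, both with overlap. The median log2 fold change over the 10 members was -0.11, against 0.01 over all genes. Scaling by library size alone lowered the latter to -0.17.

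**Figure D4:**
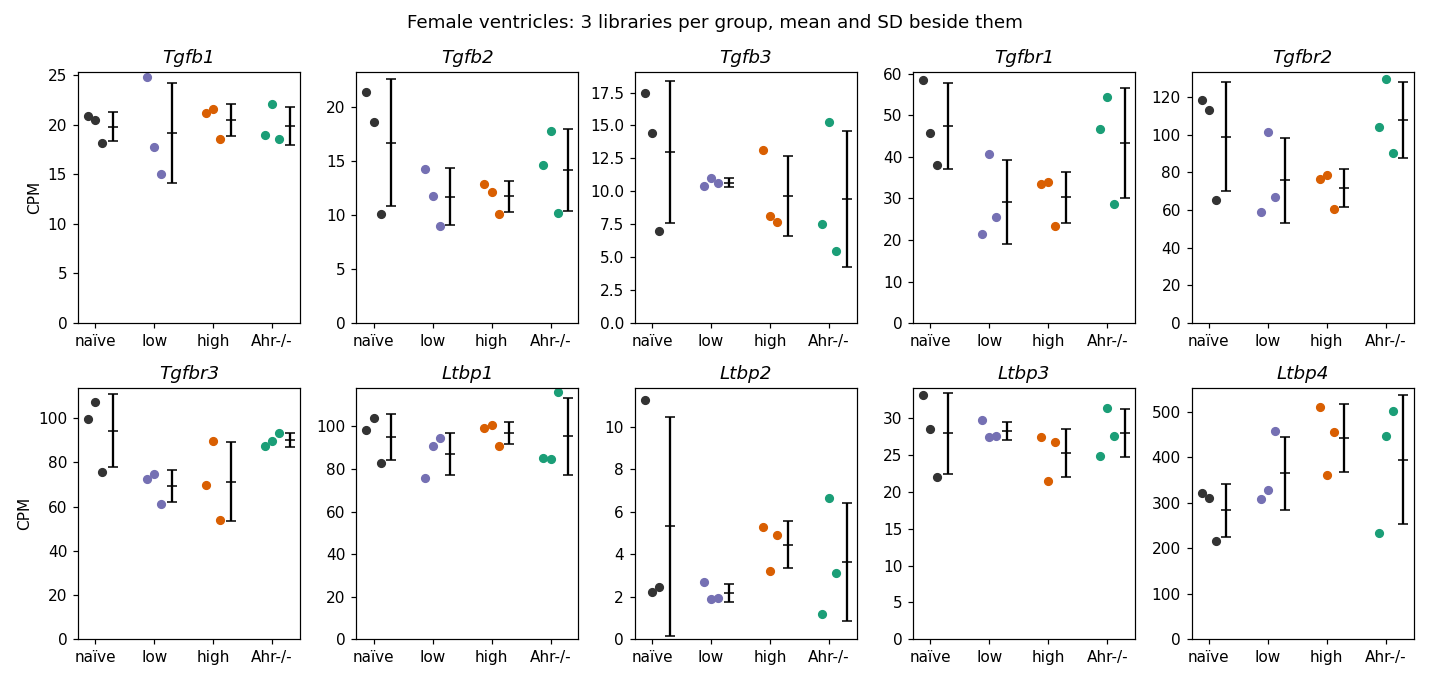
CPM of the 10 genes in the 12 female ventricle libraries by group, with the mean and SD of 3 libraries beside the points. High-dose points lie above all naïve ones for Ltbp4 (362 to 510 against 217 to 322 CPM) and below all naïve ones for Tgfbr1 (23.3 to 33.9 against 38.1 to 58.5 CPM).

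Cell markers also moved in this comparison, in which 23.7% of all genes were called. Of 6 cardiomyocyte markers 4 were called higher and 1 lower, and their sums ran from 37535 to 47155 CPM in naïve and 52498 to 66370 CPM in high-dose libraries. Of 8 fibroblast markers 2 were called higher (Col1a2 and Gsn) and 2 lower (Lum and Dcn), with sums of 2010 to 3483 and 2588 to 2881 CPM. Of 5 smooth muscle markers 2 were called higher (Tagln and Myh11) and 0 lower, with sums of 196 to 336 and 291 to 348 CPM. Of 6 endothelial markers 1 was called higher (Tie1) and 2 lower (Emcn and Tek), with sums of 760 to 893 and 785 to 944 CPM. Of 3 ventricular markers 2 were called higher (Myl3 and Irx4), with sums of 6360 to 7191 and 7743 to 8297 CPM. Of 6 macrophage markers 1 was called higher (C1qa), with sums of 88.1 to 149.6 and 94.8 to 148 CPM. The epicardial and mesothelial markers had 0 of 3 tested genes called, with sums of 11.1 to 13.4 and 18.5 to 20.1 CPM. No marker of atrium, fat, blood or platelets was called by edgeR or had an unadjusted p under 0.05. The cardiomyocyte, ventricular and epicardial sums did not overlap between the groups, while the fibroblast, smooth muscle, endothelial and macrophage sums did. Their part in the results for Ltbp4 and Tgfbr1 was not tested.

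Other genes of the pathway were read in the same comparison from 5 lists. Of 39 tested genes 10 were called, 6 higher and 4 lower, which is 25.6% beside the 23.7% of all genes. Of 9 inhibitors, Smad6, an inhibitory Smad (log2 fold change 0.94), and Pmepa1 (0.54), which sequesters receptor Smads, were higher, and Smurf2, a ubiquitin ligase for the receptors (-0.60), was lower. Of 13 genes that store or activate latent TGF-beta, Emilin1, which holds back cleavage of the precursor (0.83), and Nrros, which tethers the latent ligand on macrophages (0.70), were higher, and Itgav, the integrin subunit that releases it (-0.81), was lower. Of 4 other receptors, the co-receptor Eng (0.48) was higher and the BMP type II receptor Bmpr2 (-0.73) lower. Of 12 target genes, the collagen gene Col1a2 (0.74) was higher and the matrix gene Postn (-0.86) lower. Smad2, Smad3 and Smad4 were not called by edgeR, while 2 of these 3 had an unadjusted p under 0.05. Every list with a call held calls in both directions.

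The low dose in female ventricles was compared with the same 3 naïve libraries, so its values stand beside those of the high dose and are no separate support. By edgeR and by DESeq2 0 of 10 members were called. With edgeR 0% of all genes were called, but 17.8% of all genes and 2 of 10 members had an unadjusted p under 0.05. Ltbp4 held 309, 327 and 457 CPM after the low dose, against 217 to 322 in naïve (0.58 ± 0.25, adjusted p = 0.259). Tgfbr1 held 21.5, 40.7 and 25.5 CPM, against 38.1 to 58.5 in naïve (-0.53 ± 0.23, adjusted p = 0.265). Both groups overlapped the naïve ones. Without library 35 these values fell to 0.27 for Ltbp4 and -0.34 for Tgfbr1. Of the cell markers, 2 of 3 ventricular and 2 of 6 cardiomyocyte markers had an unadjusted p under 0.05 after the low dose. So did 1 of 5 smooth muscle, 1 of 6 endothelial, 1 of 6 macrophage and 1 of 2 tested platelet markers. Of these 0 were called by edgeR, the marker sums overlapped naïve, and their part was not tested. Tested directly, high against low dose gave 0 of 10 members called, with 0% of all genes, by edgeR, and 0 by DESeq2. Ltbp2 alone had an unadjusted p under 0.05 (4.48% of all genes did), being at 5.27, 3.23 and 4.90 CPM after the high dose and 2.68, 1.92 and 1.95 after the low dose. These groups did not overlap, and the log2 fold change was 1.04 ± 0.36 (edgeR adjusted p = 0.895). Of 4 blood markers 2 had an unadjusted p under 0.05 between the doses. Their sums were 3688 to 4764 CPM after the high and 2484 to 3212 after the low dose, without overlap. Of the other markers, 1 of 8 fibroblast and 1 of 3 tested atrial ones had such a p. Their part in the Ltbp2 value was not tested. Ltbp4 differed by 0.25 ± 0.27 and Tgfbr1 by 0.04 ± 0.23 between the doses.

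In the male ventricles edgeR called 0 of 10 members at either dose, with 0% of all genes called at the high and 0% at the low dose. Ltbp4 held 114, 317 and 415 CPM in the naïve, 313, 254 and 1005 in the high-dose and 322, 537 and 766 in the low-dose libraries. The highest value of each group came from the library whose sex-linked genes opposed the label. Tgfbr1 held 65.6, 43.5 and 53.3 CPM in the naïve, 16.5, 23.5 and 65.7 in the high-dose and 31.7, 32.5 and 35.6 in the low-dose libraries. The low-dose group lay below the naïve one (-0.65 ± 0.23, adjusted p = 0.313, unadjusted p = 0.0221, and -0.42 without naïve library 33), 1 of 10 members beside 13.9% of all genes, while the high-dose group overlapped it, with 0 of 10 members beside 9.19% of all genes. Library 65 held the highest value of all ventricle libraries for each of the 10 members, among them 1005 CPM of Ltbp4, 221 of Ltbp1, 110 of Ltbp3, 60.8 of Ltbp2 and 33.0 of Tgfb3, but for Tgfbr1 it barely exceeded naïve library 33 (65.7 against 65.6 CPM). It also held the highest sums of fibroblast (8542 CPM), smooth muscle (4202 CPM) and adipocyte markers (829.4 CPM) among the libraries labelled ventricle. Library 65 is among those in doubt, with atrial Myl4 at 1469 CPM against 2.47 and 1.37 CPM in high-dose libraries 41 and 42. The ventricular marker Myl2 was at 620 CPM in library 65 against 7272 and 7220 CPM in 41 and 42. Its values are therefore not read as those of a ventricle. Without the libraries in doubt, 2 remained in each group. Tgfbr1 was then called as lower after the high dose (-1.43 ± 0.28, edgeR adjusted p = 0.0152), 1 of 10 members beside 15.9% of all genes. In these 4 libraries the ventricular marker sums were 11801 and 11248 CPM in the high-dose against 4000 and 6779 CPM in the naïve group, and the blood sums 11438 and 6622 against 2251 and 3129 CPM. Fibroblast, smooth muscle, epicardial and platelet sums were also higher in the high-dose group without overlap, and the part of these markers was not tested. After the low dose Tgfbr1 was at -0.82 ± 0.25 and not called (adjusted p = 0.0875). Ltbp2 was called there, 1 of 10 beside 3.44% of all genes, at 8.20 and 8.75 CPM in low-dose libraries 45 and 46 against 1.57 and 2.21 CPM in naïve libraries 33 and 34 (2.10 ± 0.35, adjusted p = 0.0358). Myl4 moved with it, at 167 and 675 CPM in libraries 45 and 46 against 42.5 and 0.78 CPM in 33 and 34, while the sums of the 4 atrial markers overlapped. Fibroblast sums were 2891 and 4026 CPM in 45 and 46 against 1800 and 2109 CPM in 33 and 34, and smooth muscle sums 293 and 425.5 against 146 and 206 CPM. Epicardial sums were 13.4 and 46.8 against 8.62 and 7.36 CPM. The macrophage, ventricular, adipocyte, blood and platelet sums were higher in 45 and 46 as well. The part of these markers in the Ltbp2 value was not tested. With all libraries, whose other values of Ltbp2 were 15.3 CPM in the low-dose and 23.9 CPM in the naïve group, the difference was 0.39.

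Whether the high-dose effect differed between the sexes was tested by an interaction term over 12 ventricle libraries. No member was called (0 of 10, with 0% of all genes, edgeR, 0 by DESeq2), and 0 of 10 had an unadjusted p under 0.05, where 4.53% of all genes did. The effect in females minus that in males was -0.03 ± 0.66 for Ltbp4 and 0.19 ± 0.50 for Tgfbr1 on the log2 scale. These errors are wide, so a call in females and none in males is not shown to be a difference. Without male libraries 53 and 65 no member was called either (0 of 10 beside 8.03% of all genes), and Tgfbr1 had a value of 0.91 ± 0.29 (edgeR adjusted p = 0.068, unadjusted p = 0.0069), which is a less negative effect in females. It was the 1 of 10 members with an unadjusted p under 0.05, beside 24.1% of all genes.

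In the right atrium no member was called after TCDD. The share of all genes called by edgeR was 0% at either dose in females and 0% at either dose in males. DESeq2 called 0 members in each, beside 8 of 14608 genes in high-dose females and 63 of 14785 in high-dose males. In low-dose females it called 0 of 14622 genes and in low-dose males 8 of 14892. At an unadjusted p under 0.05, high-dose females had 0 of 10 members (3.91% of all genes) and high-dose males 1 of 10 (5.41%), which was Ltbp2. It held 22.8, 6.72 and 17.9 CPM in naïve and 9.44, 2.88 and 3.12 CPM in high-dose male RA, with overlap (-1.57 ± 0.52, edgeR adjusted p = 0.891). Fibroblast sums were 4110 to 4496 CPM in these high-dose libraries against 4576 to 6810 in naïve, without overlap. Atrial sums were 8619 to 14598 against 15537 to 16345 CPM, also without overlap. The part of these markers in the Ltbp2 value was not tested. Low-dose females had 1 of 10 (4.27%), which was Ltbp1. It held 118, 131 and 129 CPM in naïve and 86.3, 78.7 and 72.5 CPM in low-dose female RA, without overlap (-0.65 ± 0.20, adjusted p = 0.974). Without the libraries in doubt, which left 1 naïve and 2 low-dose libraries, the value was -0.48, with no spread to be had from the lone naïve library. Low-dose males had 0 of 10 members, beside 4.41% of all genes. Of the female RA libraries, 2 of 3 naïve and 2 of 3 high-dose ones were in doubt, so the high-dose comparison could not be made without them.

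In the left atrium edgeR called 0% of all genes in each of the 4 TCDD comparisons, and edgeR and DESeq2 each called 0 members. In females DESeq2 called 20 of 14922 genes after the high dose and 695 of 14885 after the low dose. In males it called 161 of 14762 genes after the high dose. The females had 1 of 10 members at an unadjusted p under 0.05 after the high dose (8.42% of all genes) and 2 of 10 after the low dose (17.6%). Tgfb1 held 16.5, 23.0 and 20.9 CPM in naïve female LA, 30.7, 24.2 and 44.1 CPM after the high dose (0.67 ± 0.26, edgeR adjusted p = 0.592) and 33.1, 28.3 and 24.6 CPM after the low dose (0.62 ± 0.21, 0.204). Neither exposed group overlapped the naïve one. Without high-dose library 64, at 44.1 CPM, the high-dose value was 0.39. Cell markers moved in these comparisons too, with 0 called by edgeR. After the high dose 3 of 4 adipocyte and 2 of 6 macrophage markers had an unadjusted p under 0.05, as did 1 of 8 fibroblast, 1 of 5 smooth muscle, 1 of 4 epicardial and 1 of 6 cardiomyocyte markers. After the low dose 2 of 6 macrophage, 2 of 8 fibroblast, 2 of 6 cardiomyocyte and 1 of 6 endothelial markers did. Adipocyte sums were 1.84 to 52.5 CPM in naïve, 29.5 to 1020 in high-dose, with the highest in library 64, and 17.4 to 336 in low-dose female LA. Macrophage sums were 191 to 220, 196 to 315 and 185 to 284 CPM. Cardiomyocyte sums were 43409 to 47890, 33652 to 41833 and 43849 to 59441 CPM, and those of the high-dose group lay below the naïve ones. The sums of every other marker list overlapped with naïve at both doses. The part of these markers in the Tgfb1 values was not tested. Tgfbr1 held 72.2, 52.5 and 56.1 CPM in naïve and 37.6, 36.0 and 34.5 CPM in low-dose female LA, without overlap (-0.61 ± 0.17, adjusted p = 0.167). High-dose males had 1 of 10 (11.4% of all genes), again Tgfbr1, with 111, 56.9 and 33.6 CPM in naïve and 31.6, 33.5 and 22.3 CPM in high-dose libraries (-1.10 ± 0.33, adjusted p = 0.371). Without naïve library 17, at 111 CPM, the difference was -0.63. Without naïve library 51, at 33.6 CPM and with little Myl4, it was -1.34 (adjusted p = 0.196), and without all libraries in doubt (51 and 63) it was -1.35 ± 0.35 (adjusted p = 0.198). Low-dose males had 0 of 10 members, beside 1.60% of all genes. Without the libraries in doubt edgeR again called 0% of all genes in low-dose male LA, and so no member. In that fit 4.11% of all genes had an unadjusted p under 0.05.

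The Ahr-/- hearts were compared with the same naïve libraries in 6 comparisons. By edgeR 0.0216% of all genes (3 genes) were called in the female ventricles. It called 0% in the male ventricles, 0% in the RA of either sex and 0% in the LA of either sex. DESeq2 called 70 genes in the female ventricles, 77 in the female RA and 24 in the male RA. It called 106 in the female LA and 5 in the male LA, and its count for the male ventricles is not given here. No member was called by either tool in the 6 comparisons. At an unadjusted p under 0.05 the ventricles had 0 of 10 members in females (9.45% of all genes) and 0 of 10 in males (4.23%). Without the male libraries in doubt, 2 of 10 members had such a p beside 23.8% of all genes, Tgfbr1 (-0.88 ± 0.26, edgeR adjusted p = 0.0957) and Tgfbr3 (-0.57 ± 0.22, 0.164), and none was called, beside 0.622%. Over all male ventricle libraries of these groups, endothelial sums were 939 to 977 CPM in Ahr-/- against 676 to 907 in naïve, without overlap. Their part in these values was not tested. Ltbp4 held 234, 447 and 502 CPM in Ahr-/- female ventricles against 217 to 322 in naïve (0.59 ± 0.27, edgeR adjusted p = 0.523). Without library 39, the lowest, its value was 0.87 ± 0.17 (edgeR adjusted p = 0.0185). The share of all genes called in that fit is not given here, so this is not read as a result about Ltbp4. Over all libraries of these female ventricles, endothelial sums were 897 to 1030 CPM in Ahr-/- against 760 to 893 in naïve, without overlap, and the sums of the other marker lists overlapped. At an unadjusted p under 0.05 were 3 of 8 fibroblast, 2 of 3 ventricular, 2 of 6 cardiomyocyte and 1 of 6 endothelial markers, with 0 called, and their part in the Ltbp4 value was not tested. Tgfbr1 held 46.8, 54.4 and 28.7 CPM there, overlapping naïve (-0.07 ± 0.20). In the RA, Ahr-/- females had 1 of 10 (5.51% of all genes), which was Ltbp1, at 70.9, 77.0 and 113 CPM against 118 to 131 in naïve (-0.66 ± 0.26, adjusted p = 0.817), and males had 0 of 10 (5.12%). Without the libraries in doubt, which left 1 naïve against 2 Ahr-/- libraries of the female RA, Ltbp1 was at -0.70 ± 0.35 (unadjusted p = 0.0688). Ltbp2 passed the threshold in that fit (2.46 ± 0.45, adjusted p = 0.0321), 1 of 10 beside 0.471% of all genes, at 4.55 CPM in the lone naïve library against 23.8 and 27.3 CPM. The spread in this fit comes from the 2 Ahr-/- libraries alone and the lone naïve library is assumed to vary like them. The 2 naïve libraries left out were at 3.59 and 50.0 CPM, and with all libraries the difference was -0.05, so nothing is read from this call. In the LA, Ahr-/- females had 1 of 10 (13.7%), which was Tgfb1, at 35.7, 31.2 and 24.4 CPM against 16.5 to 23.0 in naïve (0.67 ± 0.23, adjusted p = 0.359). The 2 highest of these came from libraries 23 and 24, which held little Myl4, and without them the difference was 0.30. That fit leaves Ahr-/- library 58 alone, 1 of the 4 female LA libraries of which 3 held Bmp10 at or over 50 CPM. With all libraries of the female LA, all 5 smooth muscle markers had an unadjusted p under 0.05 (0 called), with sums of 90.2 to 399.5 CPM in naïve and 499 to 2470 in Ahr-/- libraries, and 2 of 6 macrophage markers did, with sums of 191 to 220 and 220 to 228 CPM. Of 8 fibroblast markers 3 did, with sums of 5754 to 9002 and 4176 to 6185 CPM. Endothelial sums were 705 to 879 and 915 to 1040 CPM without overlap, with 0 of 6 under an unadjusted 0.05. Of the other lists, 1 of 6 cardiomyocyte and 1 of 4 adipocyte markers passed 0.05 unadjusted. Their part was not tested. Ahr-/- males had 1 of 10 (3.52%), Tgfbr1, at 36.1, 38.5 and 36.2 CPM against 33.6 to 111 in naïve (-0.86 ± 0.34, adjusted p = 0.928). Without naïve library 17 the difference was -0.38. Without the libraries in doubt, naïve 51 and Ahr-/- 57, it was -1.14 ± 0.33 (adjusted p = 0.347).

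**Figure D5:**
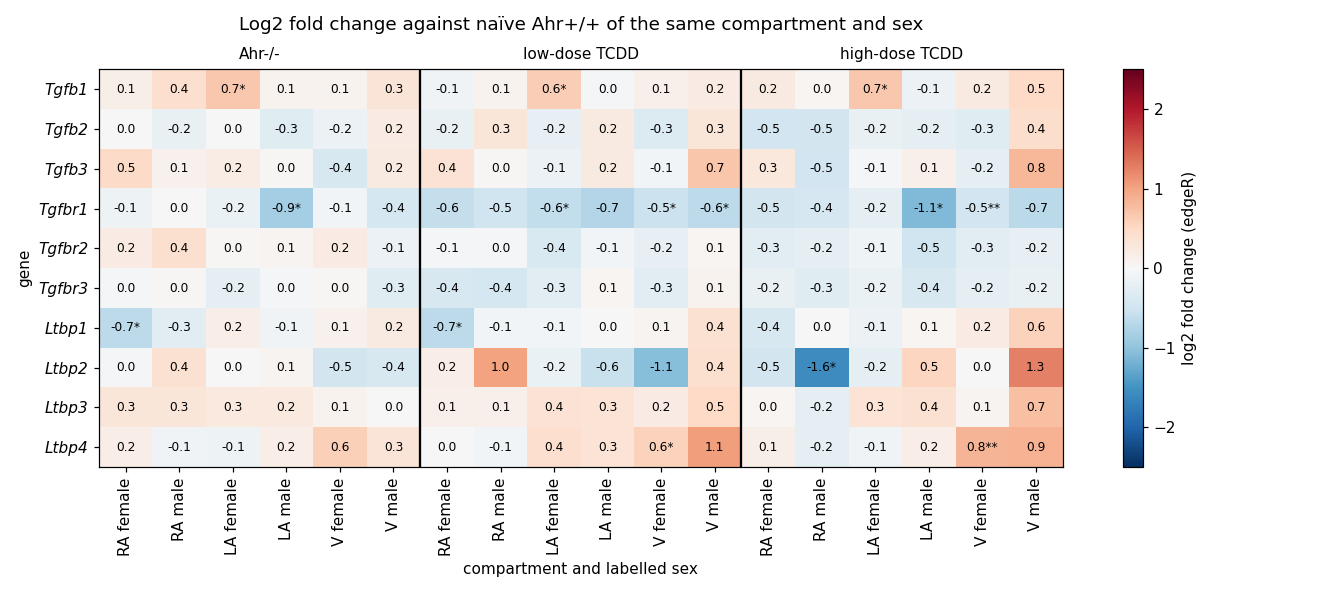
Log2 fold change by edgeR of the 10 genes in the 18 comparisons with naïve, by group, labelled compartment and sex, where 1 asterisk marks an unadjusted p under 0.05 and a double asterisk an adjusted p under 0.05. Each naïve group serves 3 comparisons, and the double asterisks stand at Ltbp4 (0.85) and Tgfbr1 (-0.48) in high-dose female ventricles.

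Across the 18 comparisons Tgfbr1 had log2 fold changes from -1.10, in high-dose male LA, to -0.005, in Ahr-/- male RA. Ltbp4 had values from 0.32 to 1.05 in the 6 ventricle comparisons and from -0.22 to 0.41 in the 12 atrial ones. Since each naïve group of 3 libraries enters 3 comparisons, these values are not independent of each other.

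Likeness between genes was read as Pearson's r over 24 group means of log2 CPM among 11110 genes, as a description only, because the means share libraries and compartments. Within the family the closest pair was Tgfb3 and Ltbp3 (r = 0.962), and both lay close to Timp2, an inhibitor of matrix metalloproteinases (0.961 and 0.969). Tgfb1 was most like C1qb, a complement gene of macrophages (0.908), and Tgfb2 most like Postn, a matrix gene of fibroblasts (0.900). Tgfbr1 was most like Spred1 (0.959), Tgfbr2 like Pid1 (0.948) and Tgfbr3 like Klhl13 (0.944). Ltbp4 was most like Rcn3 (0.942) and Ltbp2 like Epb41l1 (0.907). Ltbp1 had no close match, its highest r being 0.664 with Gjc1.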

How the data were processed

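The authors made poly-A libraries from RNA of each heart compartment, aligned single reads to the mouse genome (mm10) with TopHat and counted reads on the coding region of each gene, and they deposited raw counts for 72 libraries. The annotation release and the handling of strand and of reads with several alignments are not given in the sources used here. Base calling used CASAVA 1.8 according to the submitters' processing notes. Of 24237 identifiers, 24155 were matched to a symbol through RefSeq.

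Samples were grouped by their labels, and the library numbers are those of the sample titles. Counts were tested with edgeR 4.0.16 in R 4.3.3 (filterByExpr with minimum count 10 and total 15, TMM, robust quasi-likelihood F test, Benjamini-Hochberg adjustment over all genes tested, call at 0.05), each group against the naïve one of the same sex and compartment. Alternatives were DESeq2 1.42.0, RLE or library-size scaling, no filter, a library-series term, joint fits and left-out libraries. CPM is the count scaled to a common total of counted reads. Coding length is the union of GENCODE coding exons (GRCm38). The script was tested on simulated data. Each group has 3 libraries, and single values at 3 against 3 cannot reach an exact permutation p under 0.1. For the named genes the rule was all 10 members by compartment and in high-dose female ventricles, those with an unadjusted p under 0.05 elsewhere, up to 3 pathway genes per list and direction, and the closest genes by correlation. Sums of the target genes by compartment are not reported here. Members and lists were chosen with earlier results of these data known. Errors are given over libraries, and counting intervals are not given.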

Additional observations from a re-analysis of the deposited data

How the results depend on the processing

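In high-dose female ventricles 2 of 10 members were called. The count was 0 with all 4 groups in one fit and 1 (Tgfbr2) in the libraries numbered 1 to 48 and not in doubt, a setting chosen after the data were seen, and it ran from 1 to 3 over fits without one library. Between ventricles and right atrium 0 members were called as labelled, 1 with DESeq2, 3 without the libraries in doubt, 7 with all 72 libraries, 9 with the 56 not in doubt and 8 with the 53 that also lack ventricles 35, 45 and 46 (both added later), 3 within libraries 1 to 48, and 0 to 2 over fits without one library, the 2 arising without library 53. Between ventricles and left atrium the count went from 0 to 5, 4, 8, 8 and 2 under the same settings without libraries in doubt, with all 72, with 56, with 53 and within libraries 1 to 48. Summed over the other 17 comparisons with naïve it went from 0 to 3 without the libraries in doubt, 1 of them in a fit with a lone naïve library, and 3 within libraries 1 to 48, and from 0 to 1 over fits without one library. High-dose female RA gave no value in both of these settings, nor Ahr-/- female LA in the second. The share of all genes called by edgeR also moved, for ventricles against right atrium from 0.00645% as labelled to 51.0% with the 56 libraries. This share is not given for fits without one library or within libraries 1 to 48. The counts of members in those fits are therefore not read as results about the members.

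For ventricles against right atrium, Ltbp1 turned from -0.29 to 0.19 with all 72 libraries and 0.21 with the 56 and with the 53, and Tgfbr1 ran from -0.22 to 0.011 over fits without one library, and the cause was not tested. Over the same fits Tgfb1 ran from -0.36 to -0.14, Tgfbr3 from -0.43 to -0.22, Ltbp2 from -2.26 to -0.41 and Ltbp3 from -1.04 to -0.54, and Ltbp4 went from -0.95 to -0.37 with all 72 libraries. Of 564 re-fitted values for named members, 509 kept direction and call, 43 gained and 8 lost a call, and 4 reversed. The counts for left against right atrium, the sex interaction and high against low dose remained 0 throughout. No paired analysis was possible because the labels do not say which libraries share a heart and the library numbers are all different.

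At 11873417 reads or more a library, each member had at least 23 reads in every library. Whether depth or the spread between libraries limits the tests was not compared. The libraries in doubt were picked by sex-linked genes and, in atria alone, by Myl4, not by the members.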

Other observations

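Other genes of the pathway were also read by compartment in the 56 libraries not in doubt, as sums of CPM over each list. The 14 genes of latent TGF-beta storage and activation summed to 540 to 1160 CPM in the RA, 486 to 1019 in the LA and 318 to 538 in the ventricles. The 9 inhibitors summed to 371 to 660, 362 to 635 and 233 to 378 CPM in the same order. Smad2, Smad3 and Smad4 together summed to 115 to 207, 110 to 201 and 90.6 to 161 CPM and overlapped widely, as did the 4 other receptors at 437 to 1077, 354 to 1034 and 316 to 615 CPM. As labelled in the naïve libraries, edgeR called 0 genes of these 4 lists between ventricles and either atrium. At an unadjusted p under 0.05 there were 5 of 9 inhibitors against the RA and 4 of 9 against the LA, 2 of 4 other receptors against each, 0 and 1 of 13 genes of storage and activation and 0 of the 3 Smads, beside 18.7% and 11.5% of all genes.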
